A study of Fukomys damarensis with 47 samples.

Results

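The genes described here are 150 genes whose RNA level followed that of LAPTM5, a lysosomal membrane protein of blood-forming and immune cells, across 47 RNA-Seq libraries of cultured bone marrow cells from female Damaraland mole-rats (Fukomys damarensis). They were chosen by their Spearman correlation with LAPTM5 over log2(CPM + 1), where CPM is a gene's count divided by the library's total count and multiplied by 1000000. Of 33562 genes in the table, 11047 had at least 2 CPM in at least 25% of the libraries, 11007 of those were open to the choice, and the 150 with the highest correlation are called the members. LAPTM5 itself, CORO1A, ARL11, ADAM8 and genes with the symbol stems of surface antigens, interleukins, chemokines, colony-stimulating factors, Toll-like receptors, tumor necrosis factors, interferon regulatory factors and C-type lectins were left out of it. A symbol was known for 10 members, and the other 140 are known by Ensembl identifier alone. Since only part of the genes could be given a symbol, genes of the left-out kinds may be among those 140.

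The cultures were set up to favor mesenchymal stromal cells of the bone marrow (bMSCs), adherent precursors of osteoblasts, chondrocytes and adipocytes, and came from 16 adult females of 8 natal colonies. The 5 queens had each been paired with an unrelated male, and the nonbreeders were 7 helpers kept in their natal colony and 4 solitaires housed alone. Queens were 1004 to 1132 days old and nonbreeders 1003 to 1232 days old. Cells from pooled long bones gave 26 libraries from 16 animals (17 of nonbreeders and 9 of queens), and cells from lumbar vertebrae (LV) gave 21 libraries from 14 animals (15 and 6). Each culture received 10 nM estradiol or vehicle for 24 hr. The LV cells were released with collagenase and the long bone cells were not, so bone type and this step cannot be told apart. Natal colony stands for sets of littermates and also for the date of sacrifice, which cannot be told apart. The total count of a library lay between 5329563 and 16327339.

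Bone marrow holds stromal cells beside leukocytes, which descend from blood-forming stem cells. Macrophages and other myeloid cells can attach to culture plastic with the stromal cells, and osteoclasts, the cells that resorb bone, come from the same myeloid lineage. Leukocytes share a set of surface receptors, adaptor proteins and actin regulators that stromal cells use little. In bulk RNA a change in the number of these cells cannot be told apart from a change in RNA per cell.

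The values that chose the members were as follows and carry no test. Their correlation with LAPTM5 lay between 0.751 and 0.952 with a median of 0.806, against a median of 0.0894 over the 11047 genes. The step at the end of the list was small, with 0.750694 at rank 150 and 0.750448 at rank 151. Ranks 146 to 149 held 0.751272 to 0.752428, and the next 4 ranks after 151 held 0.748034 to 0.750347. A correlation of 0.5 or more was reached by 1193 genes. Of the genes left out by name, IL10RA (0.872), CORO1A (0.861), TLR8 (0.806) and ARL11 (0.801) had values inside the members' range. CLEC4E (0.749), CX3CR1 (0.720), CD180 (0.714) and ADAM8 (0.710) lay under it. The libraries behind these values share animals, colonies and depth.

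The members with a symbol differ in function, and 3 of the 10 were on the leukocyte list described next. NRROS, which holds latent TGF-beta at the surface of myeloid cells, followed LAPTM5 most closely of them (0.915). LCP2, an adaptor of signaling from the T cell receptor and related receptors, had a correlation of 0.804, and COTL1, an actin-binding protein, had 0.814. CTSZ, a lysosomal cysteine protease, had 0.845. C3, the central protein of the complement cascade, had 0.770, and MST1, a secreted protein that stimulates macrophages, had 0.769. PYGL, the liver form of glycogen phosphorylase (0.863), EXOC6, a subunit of the exocyst complex that tethers secretory vesicles (0.785), FAM81A (0.881) and TLDC2 (0.757) complete the 10. Of the members without a symbol, ENSFDAG00000006407 (0.952) and ENSFDAG00000018779 (0.936) ranked highest. Short gene ontology lists that the study reported give a role to some identifiers without a symbol. They hold only the genes of a term that the study found higher in queens, not the whole term. As they were selected on these same samples, they are not independent of the data. Members were 3 of the 4 identifiers under superoxide anion generation, the oxidative burst of phagocytes, and 5 of the 9 under leukocyte activation in immune responses. They were also 4 of 8 under cytokine secretion, 4 of 12 under chemotaxis and 1 of 5 under bone resorption. Of all 11047 genes tested, 150 were members. Among the 155 genes called higher in queens in the long bones here at an FDR of 20%, 57 were members. Members were thus frequent among such genes whatever the term, and nothing is read from these shares about the terms.

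Other lists of marker genes were read by the same correlation. As that correlation chose the members, it is no independent check of the label. All 26 leukocyte genes tested had a correlation with LAPTM5 above 0. Their median was 0.591, against 0.0894 over all genes tested, and 3 of them (NRROS, COTL1 and LCP2) were members. CTSS, a cathepsin of antigen-presenting cells, had 0.733, and C3AR1, the receptor for a C3 fragment, had 0.681. The 3 lymphocyte genes tested lay between 0.529 and 0.725, and 2 of them are also on the leukocyte list. No member was on the list of 26 stromal and osteoblast genes, whose median correlation was -0.0113, and COL1A1, the main collagen of bone, had -0.108. CTSK, the collagen-degrading protease of osteoclasts, had 0.0427, and the 3 osteoclast genes had a median of 0.0427. Of the 21 genes of dividing cells 19 lay above 0, with a median of 0.188, and 3 of the 4 endothelial genes lay under 0. The lists were not uniform, as GAB3 (0.161) and STK10 (0.272) of the leukocyte list lay under ATP6V0A1, a proton pump subunit of the osteoclast list (0.355), and ICAM2 of the endothelial list had 0.527.

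Among themselves the members formed a single axis. Over their 11175 pairs the median correlation was 0.728, against 0.0219 over all genes tested, and 95.1% of pairs exceeded 0.5. The first principal component held 76.1% of the members' variance, against 33.6% for all genes. These values describe a list chosen for moving together. Their correlation with LAPTM5 held a median of 0.805 within the 26 long bone libraries, 0.776 within the 21 LV libraries, 0.766 within nonbreeders, 0.880 within queens and 0.811 within the 29 vehicle libraries. After the mean of each status, bone and treatment group was removed, the median was 0.806 and the lowest value 0.580.

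The members differed widely in abundance. Their mean CPM started at 1.59 and had a median of 12.8, against 21.9 for all genes tested, and 62 were under 10 and 13 at 100 or more. ENSFDAG00000016112 alone held 9.78% of the members' counts, CTSZ held 6.98%, and the 10 largest held 50.5%. From the lowest to the highest library a member changed by a median of 5.10 on the log2 scale, against 2.43 for all genes tested, and 40 members had no count in at least 1 library. A pair of animals stood apart. The highest library was of queen MAF006 for 76 members and of queen NOF009 for 71, of LAF007 for 2 and of WEF002 for 1. The lowest library was of queen DVF007 for 46 members, of helper WAF011 for 24 and of helper DVF008 for 23.

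The mean level, the average of log2(CPM + 1) over the members, ranged from 1.68 to 6.13 over the libraries, and the members' share of all counts from 0.109% to 3.34%. Of the variation of the mean level, 59.4% lay between colonies, 29.4% between animals of a colony, 8.61% between bone types of an animal and 2.57% between treatments. These are shares of the sum of squares, not adjusted for the numbers of colonies and animals. The mean level correlated with LAPTM5 at 0.942 and with the summed CPM of the leukocyte list at 0.837 (Spearman, n = 47 libraries that share animals). The members were chosen for following LAPTM5 over these libraries, and the leukocyte list holds 3 of them. Neither value is therefore an independent check. With the summed CPM of the stromal and osteoblast list it correlated at -0.592 within the long bones and at 0.370 within the LV. Library depth also moved with it, with correlations between mean level and total counts of -0.713 over long bone libraries and -0.169 over LV libraries, and its part in the results was not tested.

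**Figure D1:**
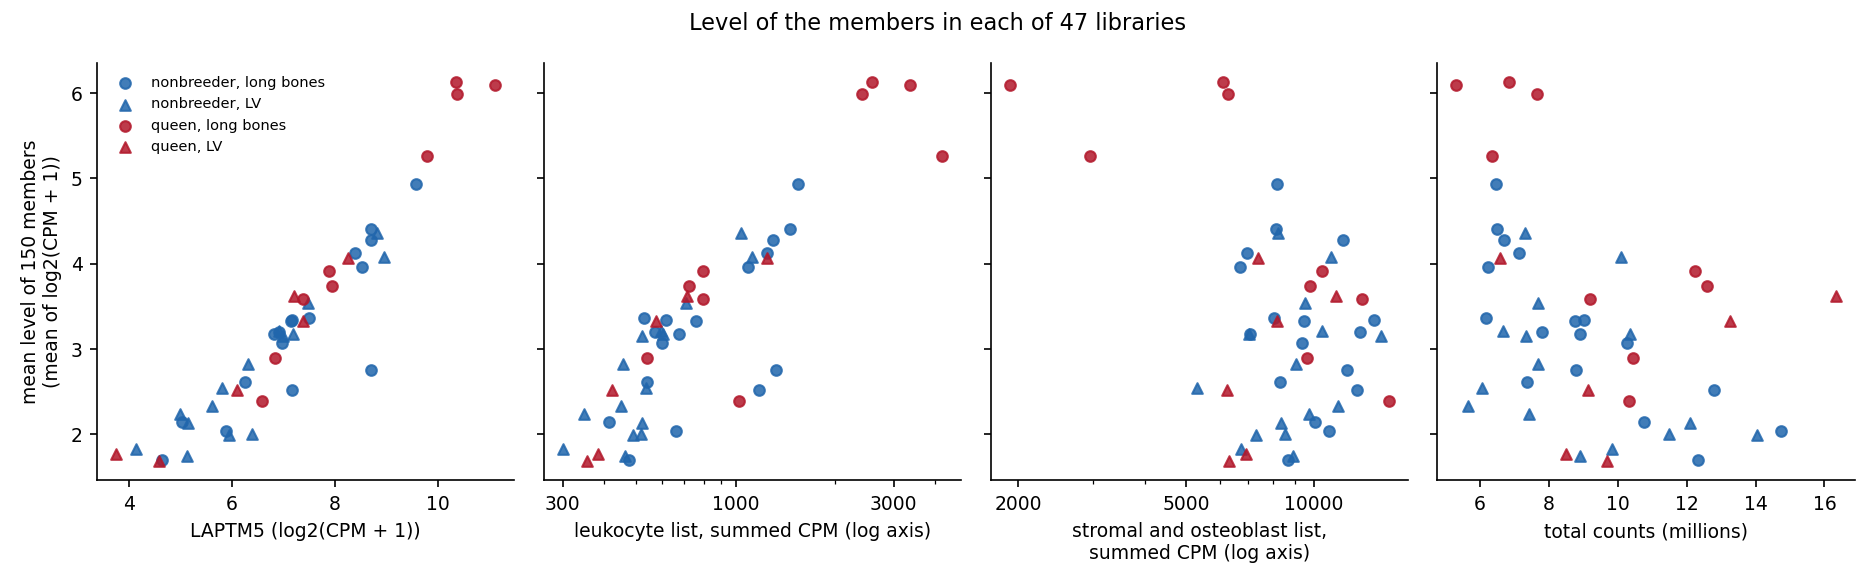
Mean level of the 150 members (vertical axis, mean of log2(CPM + 1)) in each of 47 libraries against LAPTM5, the summed CPM of the leukocyte list, the summed CPM of the stromal and osteoblast list, and the total counts; circles are long bones, triangles LV, red queens and blue nonbreeders. The points rise with LAPTM5 (Spearman 0.942), by which the members were chosen, and with the leukocyte list (0.837), which holds 3 members. The 4 highest libraries are long bone cultures of queens MAF006 and NOF009.

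Across animals, the highest mean levels in the long bones belonged to queens. After adding the counts of an animal's libraries within a bone type, the 5 queens had mean levels of 6.07 (NOF009), 5.79 (MAF006), 3.84 (WAF014), 3.34 (LAF007) and 2.39 (DVF007). The 11 nonbreeders ranged from 1.92 to 4.65 with a median of 3.18. NOF009 and MAF006 exceeded every nonbreeder, and the other 3 queens lay within the nonbreeders' range. The group means were 4.29 ± 1.59 (SD, n = 5) for queens, 3.49 ± 0.618 (n = 4) for solitaires and 3.12 ± 0.995 (n = 7) for helpers. The ranges of the 3 groups overlapped, and the step from queens to solitaires was within the queens' SD but not within that of the solitaires. In the LV the 4 queens had 4.06 (MAF006), 3.53 (WAF014), 2.52 (LAF007) and 1.74 (DVF007), and the 10 nonbreeders ranged from 1.83 to 4.25. The LV groups overlapped, although DVF007 lay just under the lowest nonbreeder, and their means were 2.97 ± 1.04 (n = 4) for queens, 2.83 ± 0.359 (n = 4) for solitaires and 2.62 ± 0.980 (n = 6) for helpers. NOF009 had no LV library.

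**Figure D2:**
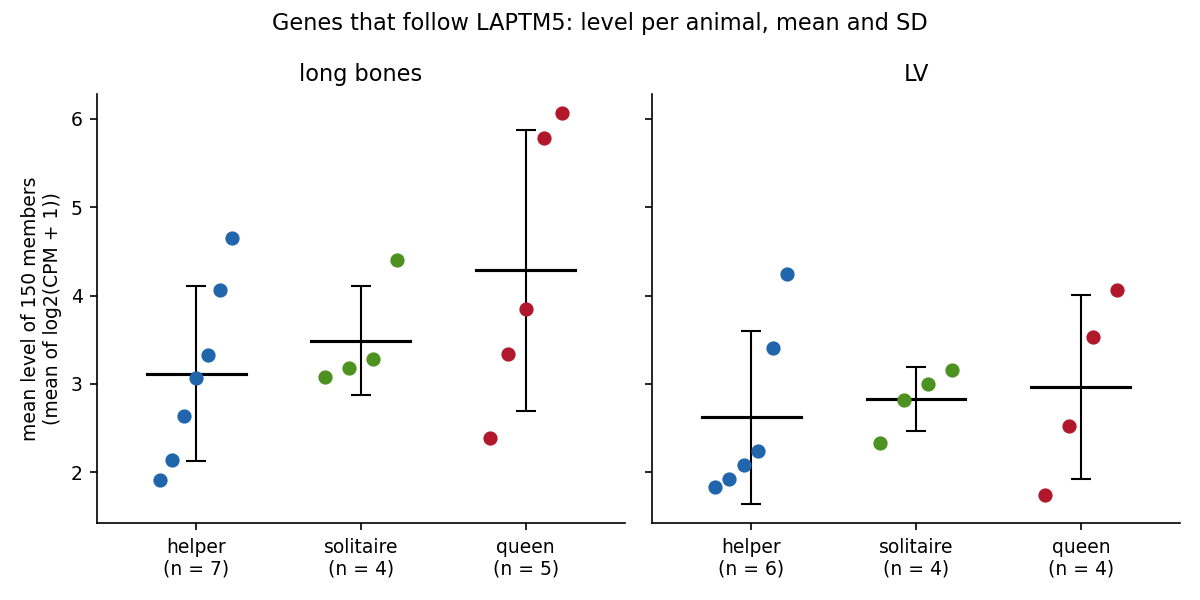
Mean level of the 150 members per animal (vertical axis, mean of log2(CPM + 1)) in the long bones and the LV; points are helpers, solitaires and queens, lines the group means and bars the SD. Queens reach 6.07 in the long bones, above the highest nonbreeder at 4.65, while the lowest queen lies at 2.39.

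The largest share of the variation lay between colonies, and littermates had been assigned to both roles where possible. Queens were therefore also set against the nonbreeder of the same natal colony, here called the sister. In the long bones the queen had the higher mean level in 4 of 5 colonies, by 2.71 in MA, 1.93 in WA, 1.41 in NO and 1.20 in LA, and in DV she was lower, with a difference of -0.249. The mean difference was 1.40 ± 1.09 (SD, n = 5). In MA and NO all 150 members were higher in the queen, beside 59.2% and 50.9% of all genes. In DV 46 were, beside 43.4% of all genes. In the LV the queen was higher in 3 of 4 colonies, by 1.74 in MA, 1.45 in WA and 0.692 in LA, with -0.185 in DV, and the mean difference was 0.922 ± 0.859 (n = 4). Colony DV was thus the exception in both bone types. Some pairs mixed treatments. In the LV, MAF006 had an estradiol library alone and her sister MAF003 a vehicle library alone. In the long bones MAF003, DVF007 and LAF008 had vehicle libraries alone, while their sisters had both treatments. In the long bones 42 members were higher in the queen in all 5 pairs and 100 in 4 of 5, where 5.48% and 20.4% of all genes were. In the LV 48 members were higher in all 4 pairs, as were 4.63% of all genes.

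In the model for long bones, with natal colony as a block, the fitted log2 fold change of queens against nonbreeders was above 0 for all 150 members. The same held for 5782 of all 11047 genes. The members had a median of 1.64 and a range of 0.18 to 3.60, against a median of 0.017 over all genes. LAPTM5 had 1.65 (SE 0.54, edgeR adjusted p = 0.345), and genes chosen for following it share its direction, so nothing is read from the members' counts beyond what they describe. No member, and 0% of all genes, was called higher in queens at a false discovery rate (FDR) of 10% by edgeR's quasi-likelihood test. At an FDR of 20%, 57 members and 1.4% of all genes were called higher, and the members were 57 of the 155 genes called in that direction. At an unadjusted p under 0.05, 127 members were higher, as were 6.21% of all genes. DESeq2's Wald test called 99 members higher at an FDR of 10% among 358 genes in that direction. A limma voom model, which took each library separately, with colony as a term and the correlation between libraries of an animal estimated once for all genes, called 125 among 575.

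The count at an FDR of 20% depended on which animals were left out. With colony as a block, the queen difference came from the 5 colonies with a queen and a sister. Leaving out either animal of such a pair took the whole pair out of that difference. The count fell to 0 when either sister of LAF007 and LAF008, MAF003 and MAF006, NOF007 and NOF009, or WAF011 and WAF014 was left out. It was 22 among 48 genes called higher without G1F022, 21 among 46 without G1F025, and 25 among 60 without G4F019 or G4F020. It was 42 among 140 without WEF002 and 47 among 155 without WEF001. It rose to 115 without DVF007 or DVF008, among 402 and 401 genes called in that direction. Without both MAF006 and NOF009, which were picked after their values were seen, 0 members were called at either FDR, 143 of 150 fold changes were above 0 and the median was 1.22.

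**Figure D3:**
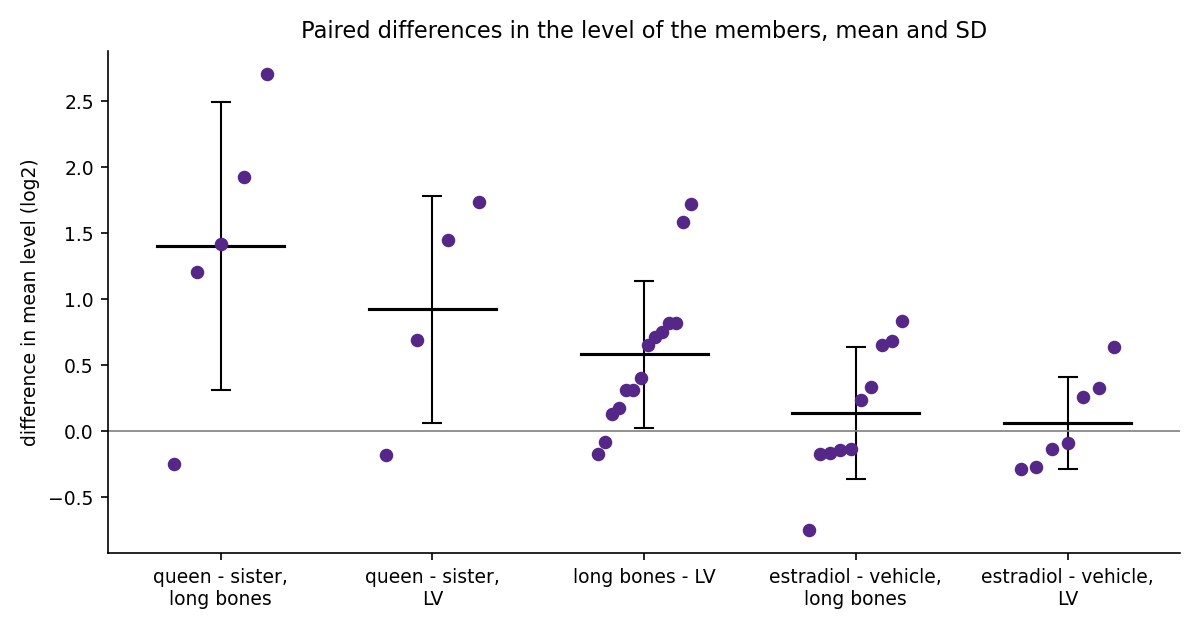
Differences in the mean level of the 150 members (vertical axis, log2) within pairs: queen minus sister in a colony, long bones minus LV in an animal, and estradiol minus vehicle in an animal and bone type; points are pairs, lines the means and bars the SD. The queen is higher in 4 of 5 long bone pairs and 3 of 4 LV pairs, the long bones in 12 of 14 animals, and the estradiol differences lie on both sides of 0.

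Of the named members, CTSZ and MST1 were called higher in queens in the long bones at an FDR of 20%. CTSZ stood at 1790 CPM in queen NOF009, 882 in MAF006, 577 in WAF014, 327 in LAF007 and 148 in DVF007, and the nonbreeders ranged from 142 to 593 with a median of 220. Its log2 fold change was 1.37 (SE 0.31, edgeR adjusted p = 0.145), with an adjusted p between 0.0102 and 0.525 when single animals were left out. Both outlying queens exceeded every nonbreeder and DVF007 lay near the lowest. MST1 was scarce, with 20.3 CPM in NOF009, 7.04 in WAF014, 6.41 in LAF007, 3.59 in MAF006 and 1.84 in DVF007, against 0.571 to 8.41 in nonbreeders. The queen was higher in 5 of 5 pairs, with a fold change of 1.72 on the log2 scale (SE 0.37, edgeR adjusted p = 0.135), and with adjusted p from 0.0344 to 0.386 when single animals were left out. Without MAF006 and NOF009 the adjusted p of both genes was 1, with log2 fold changes of 0.93 for CTSZ and 1.86 for MST1.

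The other named members were not called. C3 stood at 198 CPM in NOF009, 78.6 in MAF006, 9.31 in LAF007, 4.23 in WAF014 and 1.84 in DVF007, and at 1.03 to 62.5 in nonbreeders. The groups overlapped, and its log2 fold change was 2.06 (SE 0.55, edgeR adjusted p = 0.205). NRROS stood at 49.5 CPM in NOF009, 27.2 in MAF006, 15.7 in WAF014, 6.11 in LAF007 and 4.26 in DVF007, and at 1.91 to 18.6 in nonbreeders, with a log2 fold change of 1.26 (SE 0.47, adjusted p = 0.442). LCP2 had 0.51 (SE 0.40, adjusted p = 0.738), COTL1 0.66 (SE 0.29, adjusted p = 0.542) and PYGL 0.79 (SE 0.37, adjusted p = 0.586). LCP2 thus had the lowest of the named fold changes, and without MAF006 and NOF009 it was -0.056. EXOC6 had 1.13 (SE 0.38, adjusted p = 0.352), FAM81A 1.56 (SE 0.95, adjusted p = 0.695) and TLDC2 0.53 (SE 0.24, adjusted p = 0.580). ENSFDAG00000006407 had 1.55 (SE 0.48) and ENSFDAG00000018779 1.29 (SE 0.51), with adjusted p of 0.288 and 0.480. The leading queen was not the same for every gene, as FAM81A reached 136 CPM in MAF006 and 28.6 in NOF009.

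In the LV no gene was called at an FDR of 10% or 20%, so 0 members were, beside 0% of all genes. At an unadjusted p under 0.05, 80 members were higher in queens, as were 2.63% of all genes, and DESeq2's test called 35 members higher at an FDR of 10% among 97 genes in that direction, and voom 39 among 144. The members' median log2 fold change was 1.23, with 148 above 0, and it was 0.86 without MAF006. Of all 11047 genes 5725 were above 0. LAPTM5 had 1.29 (SE 0.72, edgeR adjusted p = 0.999), CTSZ 0.61 (SE 0.23, adjusted p = 0.999) and EXOC6 0.85 (SE 0.36, adjusted p = 0.999), and in the paired view CTSZ and EXOC6 were higher in the queen in 4 of 4 colonies. LCP2 had 0.022 (SE 0.55) and COTL1 0.22 (SE 0.30), and both were higher in the queen in 2 of 4. Without the colony block the median fell to 0.35, which is the comparison of queens with all nonbreeders rather than with sisters.

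The queen difference was not shown to depend on bone type. In a model of 14 animals with both bone types, the members' queen difference was larger in the long bones by a median of 0.47 on the log2 scale. Of the members 137 of 150 were above 0, as were 5941 of all 11047 genes. No gene was called at an FDR of 10% or 20%, so 0 members and 0% of all genes were, and edgeR's lowest adjusted p was 0.794. At an unadjusted p under 0.05, 9 members and 2.35% of all genes had a larger difference in the long bones. DESeq2's test called 0 members at an FDR of 10%. In the vehicle libraries alone, where MAF006 had no LV library and so was left out, the median was -0.026. Without WAF014, 11 members were called higher at an FDR of 10%, among 835 genes in that direction.

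**Figure D4:**
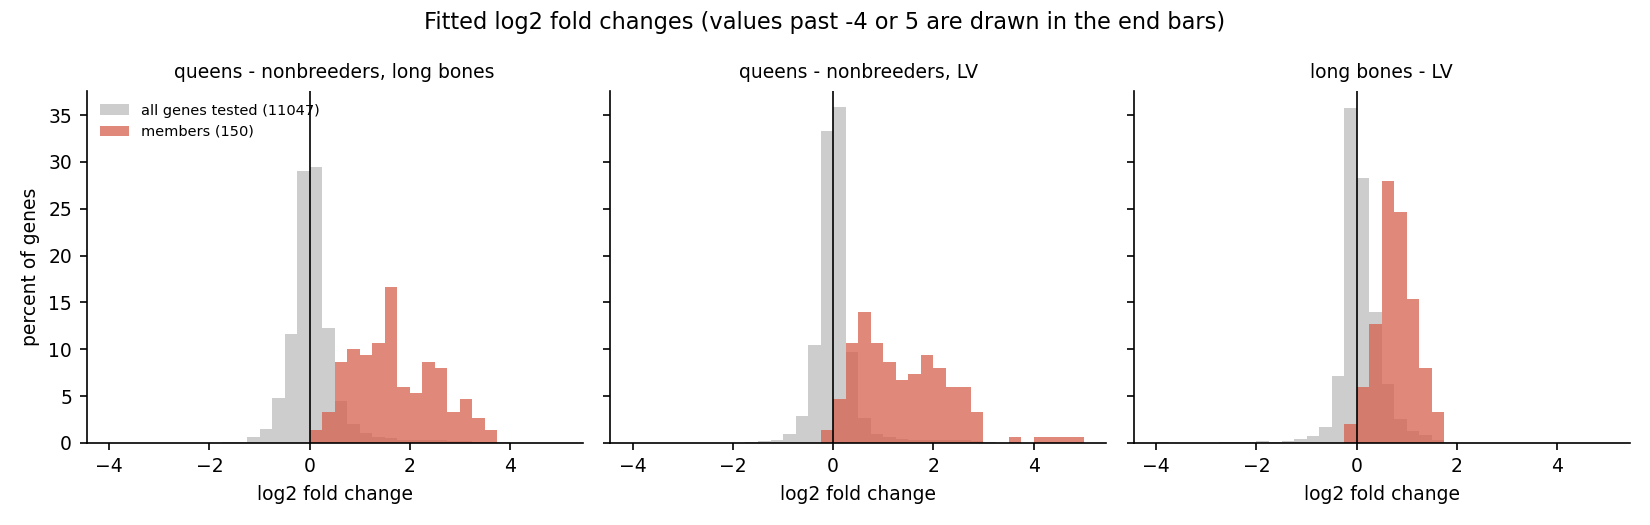
Fitted log2 fold changes (horizontal axis) of the 150 members (red) and of all 11047 genes tested (grey) as percent of genes, for queens against nonbreeders in the long bones and LV and for long bones against LV. The members' medians lie at 1.64, 1.23 and 0.76, and all genes are centered near 0.

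Between bone types, the members were higher in the long bones. The mean level was higher there in 12 of 14 animals, with a mean difference of 0.581 ± 0.556 (SD, n = 14) and a range from -0.172 in WAF011 to 1.72 in MAF006. G4F019 was the other exception, with -0.0804. The next largest differences were 1.58 in the solitaire G1F025 and 0.822 in queen LAF007. The leukocyte list moved the same way, with 25 of 26 genes above 0, 17 called higher at an FDR of 10% and a median log2 difference of 0.82. Of all 11047 genes 5921 were above 0, and 10.5% were called higher. The list holds 3 members, so it is not independent of them. The 26 stromal and osteoblast genes had a median of 0.039, with 3 called higher and 4 lower.

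With animal as a block, edgeR called 100 members higher in the long bones at an FDR of 10% and 0 lower, where 10.5% of all genes were called higher. At an FDR of 20% it called 129 members higher, beside 19.2% of all genes. The members' median log2 fold change was 0.76, with a range of -0.15 to 1.71, against a median of 0.025 for all genes. Of the members 147 were above 0, as were 5921 of all 11047 genes. LAPTM5 itself had 1.09 (SE 0.24, edgeR adjusted p = 0.00876), so this too is the direction of the gene that chose the list. Leaving out single animals gave between 75 (without DVF008, among 670 genes called higher) and 110 (without G4F019, among 1051) members at an FDR of 10%, and without MAF006 and NOF009 there were 83 among 1020. The vehicle libraries alone gave 39 among 447 genes, and a fit without the animal block gave 7 among 120, where the main count of 100 stood among 1156.

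COTL1 was the named member with the clearest bone difference. It was higher in the long bones in 14 of 14 animals, with a log2 fold change of 1.15 (SE 0.18, edgeR adjusted p = 0.000798). Its CPM ranged from 44.7 to 208 in the long bones of nonbreeders and from 24.0 to 122 in their LV, and from 88.7 to 327 and 22.1 to 84.7 in queens. LCP2 rose by 1.13 (SE 0.26, adjusted p = 0.00961), NRROS by 1.16 (SE 0.33, adjusted p = 0.0345) and PYGL by 0.85 (SE 0.17, adjusted p = 0.00461). C3 was higher in 12 of 14 animals, with 0.99 (SE 0.21, adjusted p = 0.00777), and FAM81A in 12 of 14, with 1.06 (SE 0.26, adjusted p = 0.0157). EXOC6 had 0.50 (SE 0.15, adjusted p = 0.0428) and MST1 0.84 (SE 0.31, adjusted p = 0.0871). CTSZ and TLDC2 did not pass an FDR of 10%, with 0.25 (SE 0.12, adjusted p = 0.172) and 0.17 (SE 0.11, adjusted p = 0.316). CTSZ was higher in the long bones in 8 of 14 animals, and at an FDR of 20% its bone difference was called, as its queen difference there was. The 2 top-ranked members without a symbol were higher by 1.14 (SE 0.24) and 1.38 (SE 0.27), with adjusted p of 0.00726 and 0.00374.

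**Figure D5:**
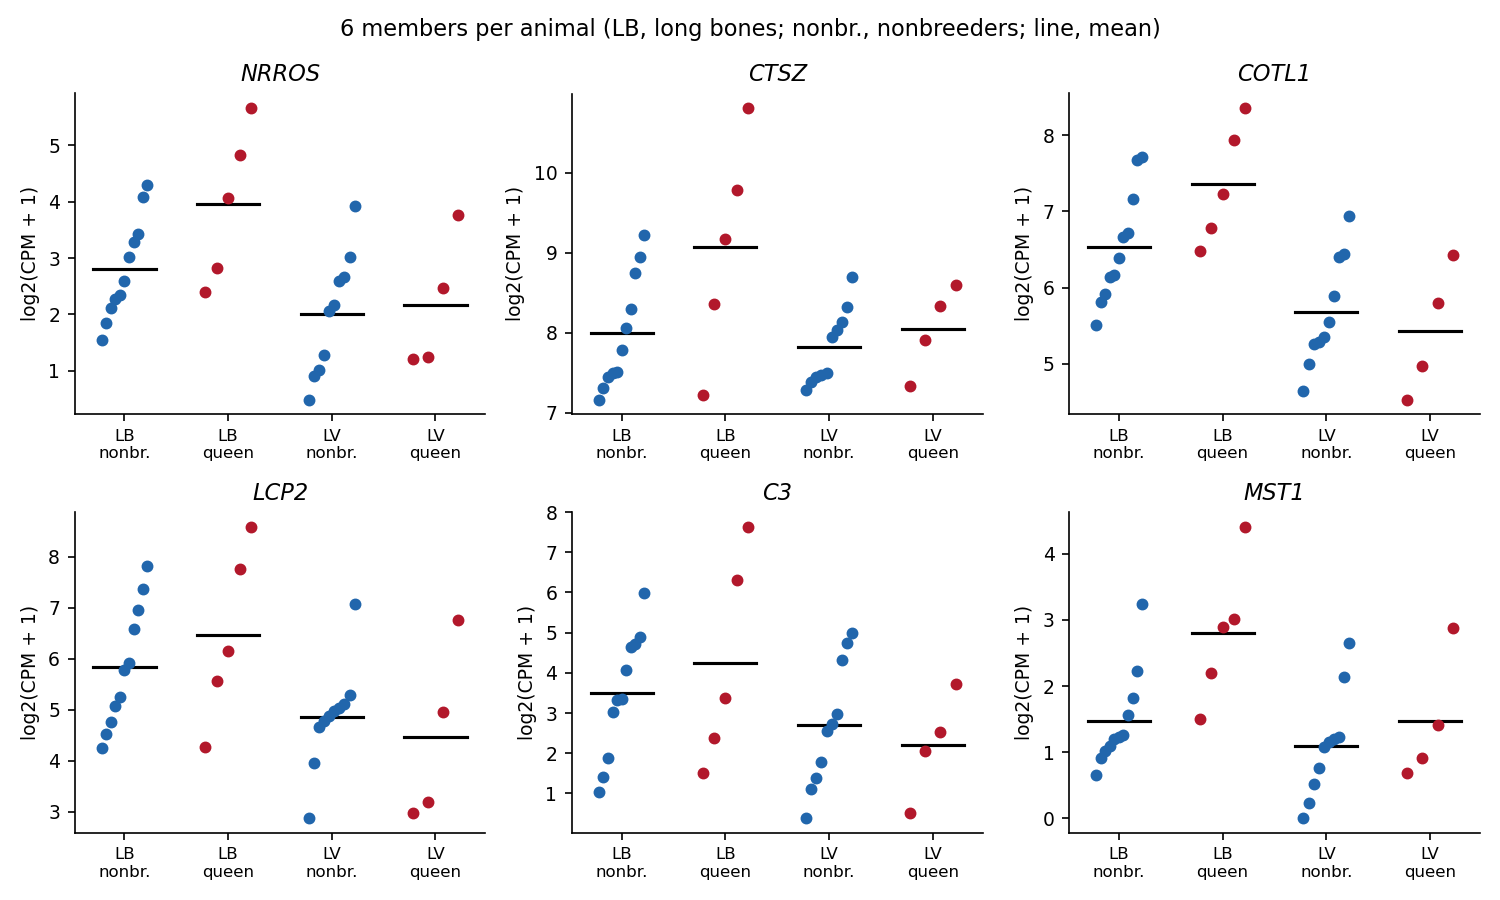
Level (vertical axes, log2(CPM + 1)) of NRROS, CTSZ, COTL1, LCP2, C3 and MST1 per animal in long bones (LB) and LV of nonbreeders (blue) and queens (red), with group means as lines. In CTSZ the highest 2 queens reach 1790 and 882 CPM in the long bones, and COTL1 is higher in long bones than LV in each of 14 animals.

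Estradiol gave no called difference. In the long bones the mean level was higher with estradiol in 5 of 10 animals, with differences from -0.752 in WEF002 to 0.834 in MAF006 and a mean of 0.136 ± 0.497 (SD, n = 10). In the LV it was higher in 3 of 7, with a mean of 0.0614 ± 0.350 (n = 7). At FDRs of 10% and 20%, 0 members and 0% of all genes were called in either bone type by edgeR, and DESeq2 called 0 members. At an unadjusted p under 0.05, 5 members were higher with estradiol in long bone cultures and 2 in LV cultures, beside 0.824% and 0.38% of all genes. The members' median log2 fold changes were 0.13 and 0.027. LAPTM5 itself had 0.43 (SE 0.25) in the long bones and 0.71 (SE 0.17, unadjusted edgeR p = 0.00257) in the LV. It was not called in either. Differences of the mean level on both sides of 0 were found in either bone type.

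The leukocyte sum, which includes members, rose with the mean level in the long bones (0.746) and the LV (0.861), as did the lymphocyte sum. The other sums followed the mean level less closely or changed sign between bone types. The summed CPM of the leukocyte list in the long bones was 659 to 3816 in queens and 415 to 1459 in nonbreeders, and in the LV 369 to 1240 and 301 to 1084. That of the stromal and osteoblast list was 2478 to 15038 in queens and 6816 to 13368 in nonbreeders in the long bones. The lymphocyte sum in the long bones was 30.2 to 741 in queens and 25.4 to 191 in nonbreeders, the osteoclast sum 371 to 925 and 266 to 498, the endothelial sum 156 to 198 and 175 to 342, and the dividing cell sum 568.5 to 2302 and 792 to 2274. Over the long bone libraries the mean level correlated with these sums at 0.898, 0.452, -0.502 and 0.491, and over the LV libraries at 0.838, -0.266, -0.0026 and 0.277. In the long bones the lymphocyte and osteoclast sums thus reached higher in queens, and the endothelial sum lay lower with overlapping ranges. In the LV the lymphocyte sum reached 416 in queens and 142 in nonbreeders. The osteoclast sum there reached 780 and 804, and the endothelial sum 190 and 361. IL7R (mean 117 CPM), CTSK (343) and RHOJ (171) held most of the lymphocyte, osteoclast and endothelial sums. THBS1 (4734) was the largest part of the stromal sum. MAF006 had both the highest leukocyte sum and the lowest stromal sum in the long bones. Its COL1A1 level of 35.4 CPM there lay under the 155 to 1265 CPM of the nonbreeders. DVF007, the queen with the lowest mean level, had the highest stromal sum and a COL1A1 level of 2251 CPM. In the queen comparison of the long bones, 21 of 26 leukocyte genes and 2 of 26 stromal and osteoblast genes had fold changes above 0, with medians of 0.51 and -0.41. Of all 11047 genes, 5782 had fold changes above 0. At an FDR of 20%, 3 leukocyte genes were called higher and 0 stromal genes were called, beside 1.4% of all genes called higher. The part of these cell types in the members' differences was not tested.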

How the data were processed

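RNA-Seq was read from 47 libraries of cultured mole-rat bone cells. Per the study's methods and the submitters' processing notes, adapters were cut with cutadapt 2.3, STAR placed the reads on DMR_v1.0, and HTSeq tallied those with a unique position per Ensembl gene. The deposited table holds raw counts. A strand setting is not given in the sources used here, so overlapping and antisense genes, and near-identical copies, are uncertain. Symbols came from the 1594 rows used of the study's supplementary gene list, 1147 of them with a symbol used here, and the reference gene table matched 0 identifiers.

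Members and marker lists were chosen with earlier results of these data known. Named are LAPTM5, every member with a symbol, the 2 members without one that had the highest correlation, COL1A1 and CTSK, and up to 4 genes of a marker list; IL10RA, CORO1A and other genes that the rule left out are given by their correlation, and ENSFDAG00000016112 was named after its values were seen. Levels used a pseudocount of 1. Natal colony was taken from the leading characters of an animal's name. Colony pairs the queens with sisters, and animal pairs bones and treatments.

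All 11047 genes were tested with edgeR 4.0.16 (quasi-likelihood, TMM, two-sided, Benjamini-Hochberg over all genes) in R 4.3.3. For status, an animal's libraries were summed within a bone type, with colony as a block. For bone type and estradiol, animal was the block. Alternatives were DESeq2 1.42.0 (Wald test, size factors), limma 3.58.1 (voom), other filters, no block, vehicle libraries alone and each animal left out. The fits were tested on simulated data. Figures used matplotlib 3.10.9. Animals, not cultures, are the replicates. For status, the voom model alone took an animal's libraries singly, with their correlation estimated. Depth, from 5329563 to 16327339 counts, gives the fewest reads, and so the widest counting error, to members near the minimum of 2 CPM.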

Additional observations from a re-analysis of the deposited data

Results flagged for a closer look

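Of 100 groups of 4 to 10 animals (levels of the members, of LAPTM5 and of the other named genes by social group and bone type, and paired differences), 5 held an animal whose gap to its neighbor was large for the group's range (Dixon's 95% limit); chance alone gives about 1 in 20. In the long bones of the 4 solitaires, G1F025 had a mean member level of 4.40, against 3.08 to 3.29 in the other 3, and a LAPTM5 level of 8.71 on the log2(CPM + 1) scale, against 6.81 to 7.06. EXOC6 stood at 2.73 in the LV of helper NOF007, against 1.45 to 1.78 in the other helpers. TLDC2 stood at 2.73 in the LV of solitaire MAF003, against 3.06 to 3.13. CTSK, which is no member, stood at 6.89 in the LV of queen MAF006, against 8.96 to 9.23 in the other 3 queens.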

How the results depend on the processing

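Counts of members called depended on the test, the filter and the animals, and the cause was not tested except where an alternative by its construction uses fewer libraries. Counts are given among all genes called in the same direction. For queens in the long bones, the count at an FDR of 10% was 0 in the main analysis. It was 123 among 684 with no low-count filter, 22 among 64 with filterByExpr and 99 among 358 with DESeq2's Wald test. It was 28 among 76 in vehicle libraries alone and 125 among 575 with voom. When single animals were left out it was 0 to 103, the highest among 265 without DVF007 or DVF008. At 20% it was 57 among 155, 128 among 844 with no filter, 117 among 471 with DESeq2 and 132 among 757 with voom. It was 0 with no replicate block (colony), 0 without MAF006 and NOF009, and 0 to 115 (among 402 without DVF007) with single animals left out. For queens in the LV, the counts of 0 became 71 among 275 and 79 among 309 with no filter. They were 35 among 97 and 42 among 115 with DESeq2, and 39 among 144 and 50 among 198 with voom. With single animals left out they reached 0 to 3 and 0 to 27. The highest were among 3 and 47 without DVF007, and 3 stood among 16 without WEF001 or WEF002. For bone type, the counts of 100 among 1156 and 129 among 2120 became 7 among 120 and 21 among 405 with no replicate block (animal). In vehicle libraries alone, which hold no LV library of MAF006, they were 39 among 447 and 57 among 691. For the difference of the queen effect between bones, leaving out single animals gave 0 to 11 and 0 to 29. The highest were among 835 and 1500 without WAF014. The members' median log2 fold change was above 0 in each alternative for queens and for bone type, with 0.35 for queens in the LV with no replicate block. It turned for the queen effect between bones in vehicle libraries (-0.026) and for estradiol in the LV with no replicate block (-0.018), where leaving out single animals gave -0.088 to 0.12. Choosing the list anew from long bone libraries alone kept 80 of the 150 members, while the other choices kept 110 to 139 and leaving out single animals 112 to 148. For queens in the LV, C3 turned to -0.98 and COTL1 to -0.24 with no replicate block, and COTL1 to -0.033 with voom and to between -0.12 and 0.59 with single animals left out. LCP2 turned to -0.60 in vehicle libraries, -0.63 without MAF006 and NOF009 and -0.51 with voom, with -0.63 to 0.62 over single animals, and in the long bones to -0.056 without MAF006 and NOF009. PYGL in the LV turned to -0.063 without MAF006 and NOF009, with -0.063 to 0.98 over single animals.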
